A study of Mus musculus with 21 samples.

Results

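Tumour necrosis factor alpha (TNF), applied for 2 h to mouse 3T3-L1 adipocytes, was compared with the untreated control across all genes on the array. The comparison takes the 3 arrays labelled TNF_2H and the 3 arrays labelled CTL, which are 6 of the 21 arrays of the series. 3T3-L1 is an established line of mouse preadipocytes that accumulates fat when differentiated in culture, here for 14 days. Treatments were begun at different times before RNA was collected, and the control is labelled 0 h. The other groups used below are TNF 24 h, TNF 6 d and dexamethasone 2 h (Dex_2H, 20 nM), a synthetic glucocorticoid. The series follows transcripts at early, intermediate and late times while these cells become insulin resistant under either agent. The labels give no TNF dose, no vehicle and no handling of the control medium. The replicates are labelled biological, but separate cultures are not described, so p-values measure the spread between these samples. The labels name no cell type other than these cultured adipocytes.

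TNF binds receptors on the cell surface that recruit adaptor proteins and ubiquitin ligases, which activate the IKK kinases. IKK marks the inhibitory IkappaB proteins for destruction, and NF-kB dimers then enter the nucleus and switch on chemokines, cytokines and their own inhibitors. The same receptors activate the MAP kinases that act through AP-1. In fat cells TNF is known for opposing the adipogenic factor PPARg and for reducing insulin action.

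Expression is given on the log2 scale of the authors' robust multi-array averaging (RMA), on which a difference of 1 is 2-fold. A change is the mean of the 3 TNF 2 h arrays minus the mean of the 3 control arrays, ± its standard error (SE), and a fold is the same quantity on the linear scale. Genes were called at a limma adjusted p below 0.05. Across genes, the 6 arrays correlated with their group mates at 0.992 to 0.997. RNA quality was read from how far the 3' probe sets of Actb and Gapdh exceed their 5' probe sets, and this 3'-5' gap was 0.112 to 0.283 in the controls. The gap was 0.083, 0.736 and 0.165 in TNF 2 h replicates 1 to 3, so replicate 2 of that group was the highest of the 6. TNF 6 d replicate 2 stood apart, as the values of its probe sets had an SD of 2.04 where the remaining 20 arrays had 2.44 to 2.51, and was left out. It is in neither group compared but widens the pooled spread. Arrays have no sequencing depth, and their number limits the precision.

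The markers of fat cells and of other cell types were read first. Adiponectin (Adipoq) read 14.87, 14.88 and 14.88 in the controls and 14.83, 14.85 and 14.82 after TNF. Fabp4, the fatty acid carrier of fat cells, read 14.92, 14.94 and 14.92 in the controls and 14.89, 14.87 and 14.97 after TNF. Neither was called (adjusted p = 0.739 and 0.908), but both lay close to 15.06, the highest value of the data, so no stability is read from them. Of the 7 adipocyte markers tested 2 were lower, Lipe (-0.79) and Slc2a4 (-0.46), and 5 not called. Cidec, a droplet protein, read 13.26, 13.24 and 13.24 in the controls and 13.03, 12.43 and 12.72 after TNF, without overlap (-0.52 ± 0.30, adjusted p = 0.357). Of the 8 adipocyte markers measured, 7 lay above 5.34, the median of all values, in both groups, and leptin (Lep) did not. The log2 of the summed level of these 8 genes was 16.60 to 16.62 in the controls and 16.48 to 16.52 after TNF. In bulk samples fewer cells of a type and less RNA per cell cannot be told apart. Among 10 macrophage markers, 1 lay above the median in the controls and 2 after TNF, with a summed level of 8.14 to 8.29 and 8.24 to 8.37. The marker above it in both groups was Csf1r, the receptor of Csf1, at 6.45, 6.44 and 6.45 in the controls and 6.63, 6.55 and 6.62 after TNF. Adgre1, Itgam, Ptprc, Cd163, Mrc1, Cd68, Fcgr1 and C1qa had means below the median in both groups. Lyz2, a macrophage lysozyme gene, was called higher (0.44 ± 0.13, adjusted p = 0.0361) from a dim control mean of 5.04, but not with all 21 arrays, in the model of the 6 arrays or when any of 4 single arrays was left out. Of 10 endothelial markers, 3 lay above the median in each group (8.92 to 9.12 and 8.82 to 8.83), and the 9 fibroblast markers lay above it in both (15.04 to 15.19 and 14.95 to 15.30). Of these Pdgfra, a receptor of preadipocytes, was called higher (0.49 ± 0.15, adjusted p = 0.0371) although its groups overlapped, and it too lost the call with all 21 arrays, in the model of the 6 arrays or when any of 4 single arrays was left out. The share called was 28.6% of the 7 adipocyte markers tested and 11.1% of the 9 fibroblast markers. It was 33.3% of the 3 macrophage markers tested, against 10.7% of all genes tested. What part these markers have in the results below was not tested.

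After 2 h of TNF, 1297 of 12156 genes tested were called (10.7%). Of these, 801 were higher (6.59% of genes tested) and 496 were lower (4.08%). These shares are the background for every list count below, and no list was tested as a set. The rises were larger than the falls. At least 4-fold, 97 genes were higher and 7 were lower, and at least 8-fold 35 were higher and none lower. The median called rise was 0.85 and the median called fall -0.58, against a median change of all genes of -0.051. An unadjusted p below 0.05 was reached by 2597 genes. The arrays of the 2 groups did not overlap for 2788 genes (22.9%), 1258 of them called. With all 21 arrays in the model 464 genes were called, 358 higher and 106 lower, all 464 also called without that array. In a model of the 6 arrays alone 844 were called, 608 higher and 236 lower. The count of lower genes was 326 without control replicate 2 and 295 without TNF 2 h replicate 3. With the 3'-5' gap as a covariate 959 were lower. Of the 208 called genes in the lists below, 121 were also called with all 21 arrays, 167 in the model of the 6 arrays and 165 whichever 1 of the 6 arrays was left out. Calls so lost are given beside the gene. The 15 highest and 15 lowest genes named below were picked without overlap of the groups, so their separation adds no support.

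**Figure D1:**
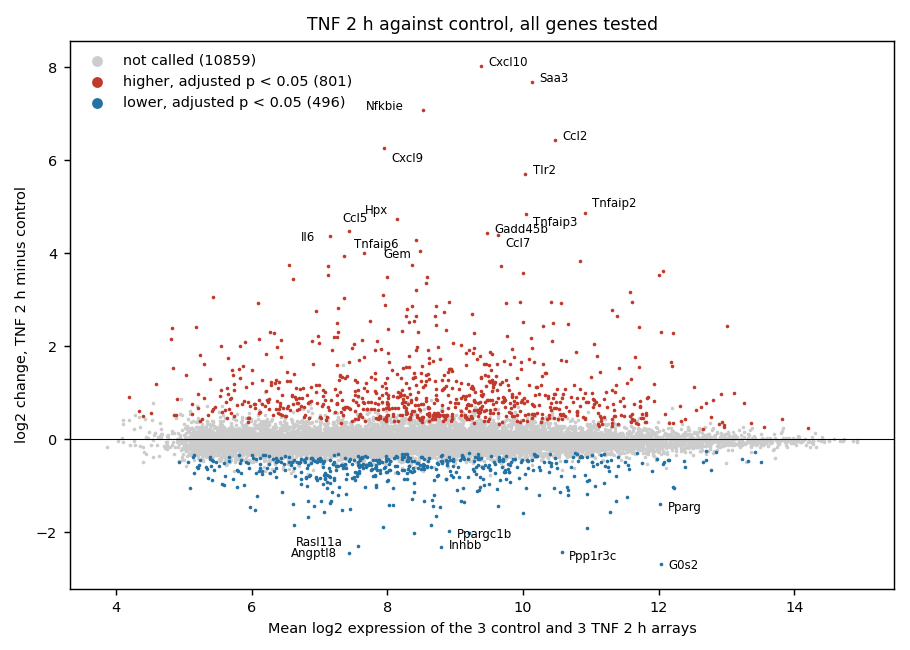
Each point is 1 of the 12156 genes tested, with its mean log2 expression over the 6 arrays on the horizontal axis and its log2 change (TNF 2 h minus control) on the vertical axis. The 801 higher genes (red) reach 8.04 at Cxcl10 and the 496 lower genes (blue) reach -2.68 at G0s2, while 10859 genes were not called (grey).

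The promoters of 5 of the induced genes are shown because each holds a match to the kappaB consensus, the sequence that NF-kB dimers bind, in the 250 bases before the start of transcription. They are from RefSeq on GRCm38.p6, read 5' to 3' on the strand of the gene, with the kappaB match in capitals. Cxcl10, a chemokine, starts after chr5:92348890-92349139 on the minus strand. Tnfaip3, the ubiquitin editor A20, starts after chr10:19015411-19015660 (minus). Il6, the cytokine interleukin 6, follows chr5:30012864-30013113 (plus). Irf1, a transcription factor of interferon genes, follows chr11:53769764-53770013 (plus), and the chemokine Cxcl1 follows chr5:90890995-90891244 (plus).
Cxcl10: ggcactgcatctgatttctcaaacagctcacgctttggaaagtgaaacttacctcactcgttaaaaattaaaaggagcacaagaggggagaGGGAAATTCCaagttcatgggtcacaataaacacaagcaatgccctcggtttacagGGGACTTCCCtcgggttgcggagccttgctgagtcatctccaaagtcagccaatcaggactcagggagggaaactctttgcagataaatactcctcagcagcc
Tnfaip3: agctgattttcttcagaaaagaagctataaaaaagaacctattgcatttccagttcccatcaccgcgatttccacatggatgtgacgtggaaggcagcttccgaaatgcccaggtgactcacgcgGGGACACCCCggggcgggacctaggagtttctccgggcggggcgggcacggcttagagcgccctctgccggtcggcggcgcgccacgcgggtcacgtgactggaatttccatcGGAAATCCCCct
Il6: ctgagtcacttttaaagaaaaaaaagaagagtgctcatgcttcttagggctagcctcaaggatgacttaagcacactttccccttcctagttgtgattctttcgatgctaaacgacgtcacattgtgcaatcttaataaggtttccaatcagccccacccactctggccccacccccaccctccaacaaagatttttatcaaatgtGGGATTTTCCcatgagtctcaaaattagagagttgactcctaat
Irf1: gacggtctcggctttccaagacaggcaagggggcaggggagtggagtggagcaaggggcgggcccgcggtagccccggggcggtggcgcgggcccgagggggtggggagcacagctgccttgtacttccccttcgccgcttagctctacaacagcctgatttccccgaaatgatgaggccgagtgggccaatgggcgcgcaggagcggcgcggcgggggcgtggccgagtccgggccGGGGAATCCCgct
Cxcl1: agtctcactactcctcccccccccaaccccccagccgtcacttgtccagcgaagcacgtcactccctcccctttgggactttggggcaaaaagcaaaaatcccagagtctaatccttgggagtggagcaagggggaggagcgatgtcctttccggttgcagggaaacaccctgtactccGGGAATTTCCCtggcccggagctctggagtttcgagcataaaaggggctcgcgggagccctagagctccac

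In these windows the matches end 150 and 94 bases before the start in Cxcl10 and 116 and 3 bases before it in Tnfaip3. Il6 has a match at 35 bases and Irf1 at 4, while the Cxcl1 capitals are 2 overlapping matches that end 62 and 61 bases before the start. Over windows from 250 bases before to 50 after a start, on either strand, a kappaB match stood in 24.4% of the 90 windows of genes at least 4-fold higher (71 genes). The share was 11.1% of the 828 windows of all higher genes, 3.27% of the 551 windows of lower genes and 5.27% of the 12555 windows of genes tested. Among all 32851 windows in the table it was 4.51%. The AP-1 motif TGANTCA stood in 13.3% of the windows of genes at least 4-fold higher and 5.92% of those of all higher genes. It stood in 5.44% of the windows of lower genes, 5.31% of those tested and 7.81% of all in the table. For the STAT motif TTCNNNGAA these shares were 11.1%, 8.45%, 6.35%, 6.71% and 8.30%. The motifs can overlap, several windows can belong to 1 gene, and the shares are a description with no test. No kappaB match stood in the windows of Pparg, Cebpa, Irs1 and G0s2, which fell, and none in those of Saa3, Junb, Lcn2 and Icam1, which rose.

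Most of the tested inhibitors of NF-kB, many of which NF-kB itself induces, rose. Of 18 listed genes 16 were tested, and 13 were higher and 3 not called, with a median change of 1.56. Nfkbia, which encodes the inhibitor IkappaB-alpha, read 11.93, 11.91 and 11.49 in the controls and 14.20, 14.24 and 14.22 after TNF. The groups were well apart, and the TNF arrays lay within hundredths of each other. The rise was 2.44 ± 0.10, or 5.42-fold (adjusted p = 3.04e-13), and 4 other Nfkbia probe sets changed by 1.87 to 3.57. Tnfaip3, whose protein A20 removes ubiquitin chains from the receptor complex, read 7.50, 7.87 and 7.48 in the controls and 12.40, 12.59 and 12.41 after TNF. It rose 28.8-fold (4.85 ± 0.15, adjusted p = 2.61e-15) and was among the 15 highest genes, while its other probe set changed by 1.32. Nfkbie, the inhibitor IkappaB-epsilon, read 4.58, 5.21 and 5.18 against 11.95, 12.20 and 12.06. Its controls were below the median of all values, so its rise of 7.08 ± 0.19 is read as a lower limit. The same reading is used for dim genes below, and no detection floor was measured. The other Nfkbie probe set changed by 4.55.

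Bcl3 and Nfkbiz, atypical IkappaB proteins that work in the nucleus, also rose. Bcl3 read 5.4, 5.70 and 5.86 in the controls and 9.45, 9.94 and 9.57 after TNF (4.0 ± 0.19, adjusted p = 2.18e-12). Nfkbiz read 8.80, 9.09 and 8.89 in the controls and 11.80, 11.97 and 11.91 after TNF (2.96 ± 0.12, adjusted p = 1.78e-13). Neither gene had overlapping groups. Tnip1, a partner of A20, rose by 2.65 ± 0.10. Zfp36 and Zc3h12a, proteins that destroy cytokine mRNAs, rose by 2.86 ± 0.15 and 2.13 ± 0.14, and Zfp36 was also 2.42 above control under Dex 2 h. Smaller rises were called for Nfkbib (0.99 ± 0.17, adjusted p = 0.132 with all 21 arrays), the deubiquitinases Cyld (0.90 ± 0.15, adjusted p = 0.0804 with all 21 arrays) and Otulin (0.40 ± 0.10), N4bp1 (0.85 ± 0.14) and Zc3h12c (0.90 ± 0.15). Nfkbid (-0.08 ± 0.13), Tnip2 (0.04 ± 0.14) and Tax1bp1 (-0.14 ± 0.13) were not called. Without TNF 2 h replicate 1, with all 21 arrays or in the model of the 6 arrays (adjusted p = 0.139), Otulin was not called.

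Among TNF receptors, adaptors, kinases and NF-kB subunits, 24 of 30 listed genes were tested, of which 14 were higher, 1 lower and 9 not called (median 0.82). Birc3 and Birc2 encode cIAP2 and cIAP1, ubiquitin ligases of the receptor complex. Birc3 read 8.06, 8.16 and 8.43 in the controls and 11.61, 12.09 and 11.68 after TNF. Birc2 read 8.92, 9.0 and 9.18 in the controls and 11.22, 11.26 and 11.12 after TNF. The groups lay apart for both, with rises of 3.58 ± 0.14 (adjusted p = 2.20e-13) and 2.17 ± 0.10 (adjusted p = 2.18e-12), though the other Birc3 probe set changed by 1.18. Relb, the subunit of the non-canonical pathway, read 6.18, 6.18 and 6.35 against 9.69, 9.83 and 9.69, a rise of 3.5 ± 0.15 (adjusted p = 5.23e-13). The subunits Nfkb2 (1.98 ± 0.19, other probe set 1.09) and Rela (1.87 ± 0.09) rose, as did Rel (1.62 ± 0.14), whose control mean of 4.48 makes its change a lower limit.

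The adaptors Traf5 (2.64 ± 0.15), Traf2 (0.95 ± 0.12) and Tank (0.68 ± 0.14, adjusted p = 0.691 with all 21 arrays) rose. So did the kinases Map3k8 (1.77 ± 0.13), Ikbke (1.11 ± 0.12, adjusted p = 0.0835 with all 21 arrays) and Tbk1 (0.99 ± 0.11). Of the receptors, Tnfrsf1b, the gene of TNF receptor 2, rose by 1.27 ± 0.15 while its other probe set changed by -0.27, and Tnfrsf1a, that of receptor 1, changed by -0.12 ± 0.11 and was not called. The difference between the 2 receptors was not tested. Tab1, a partner of the kinase TAK1, was lower by the model (-0.45 ± 0.12, adjusted p = 0.0202). No list member was lower without control replicate 2, control replicate 3 or TNF 2 h replicate 3, in the model of the 6 arrays or with all 21 arrays.

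The CXC chemokines, secreted proteins that attract leukocytes, included the largest rise of the comparison. Of 13 listed genes 10 were tested, 5 were higher and 5 not called, with a median change of 1.77. Cxcl10, a ligand of the T cell receptor CXCR3, read 5.56, 5.31 and 5.22 in the controls and 13.68, 12.90 and 13.63 after TNF. This is a change of 8.04 ± 0.23, or 263-fold (adjusted p = 7.08e-16), from a level near the median of all values to the upper end of the scale. Cxcl9, another CXCR3 ligand, read 5.04, 4.94 and 4.48 in the controls and 11.13, 10.93 and 11.20 after TNF. Its controls were dim, and the rise of 6.27 ± 0.16 is a lower limit. Cxcl11, the remaining ligand of that receptor, changed by 0.59 ± 0.27 and was not called (adjusted p = 0.194).

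The neutrophil chemokines behaved alike in direction. Cxcl5 read 7.70, 7.86 and 7.88 in the controls and 11.39, 11.36 and 11.85 after TNF (3.72 ± 0.18, adjusted p = 2.35e-12). Cxcl1 read 8.29, 8.31 and 8.25 in the controls and 11.16, 11.31 and 11.20 after TNF (2.94 ± 0.13, adjusted p = 5.23e-13). Controls and TNF arrays were fully separate in both genes. The other 2 Cxcl1 probe sets changed by 5.54 and 5.99, so the size of the Cxcl1 rise depends on the probe set. Cxcl2 read 3.79, 4.05 and 3.86 against 7.63, 6.86 and 6.36, a lower limit of 3.05 ± 0.20. Cxcl12, Cxcl13, Cxcl16 and Cxcl17 changed by 0.02 to 0.12 and were not called.

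Of 19 CC chemokines and Cx3cl1, 13 were tested, 8 were higher and 5 not called (median 1.10). Ccl2, the monocyte chemoattractant MCP-1, read 7.62, 7.25 and 6.90 in the controls and 13.87, 13.15 and 14.07 after TNF. It rose 87.0-fold (6.44 ± 0.20, adjusted p = 2.14e-15) and was among the 15 highest genes. Its neighbour in function Ccl7, also a monocyte attractant, read 7.65, 7.34 and 7.28 against 12.01, 11.28 and 12.18 (4.40 ± 0.20, adjusted p = 8.51e-13). In both genes the lowest TNF array was replicate 2, the one with the highest 3'-5' gap. Ccl5, or RANTES, read 5.19, 5.25 and 5.16 in the controls and 9.67, 9.32 and 10.05 after TNF, a lower limit of 4.47 ± 0.21. Cx3cl1, the membrane-bound fractalkine, read 7.07, 7.06 and 7.21 against 9.45, 9.91 and 9.62 (2.55 ± 0.14, adjusted p = 5.06e-11), and other probe sets of it changed by 0.10 to 1.55. Ccl9 (1.86 ± 0.18), Ccl17 (1.19 ± 0.24, from a dim control mean of 5.14) and Ccl20 (0.73 ± 0.17, adjusted p = 0.094 in the model of the 6 arrays) also rose. Ccl8 was called (1.10 ± 0.31, adjusted p = 0.0219), but not with all 21 arrays (adjusted p = 0.387), in the model of the 6 arrays (adjusted p = 0.0523) or without control replicate 1, control replicate 2 or TNF 2 h replicate 3. The eosinophil attractant Ccl11 (0.37 ± 0.32, adjusted p = 0.587) was not called.

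Among cytokines and growth factors of inflammation, 20 of 36 listed genes were tested and 13 were dim, among them Tnf, Il1a and Il1b. Of those tested 7 were higher, 1 lower and 12 not called, with a median change of 0.22. Csf1, the growth factor of macrophages, read 9.02, 8.96 and 8.79 in the controls and 12.57, 12.70 and 12.97 after TNF, a 14.2-fold rise (3.83 ± 0.16, adjusted p = 3.05e-13). Its 3 other probe sets changed by 0.92 to 3.65. Il15, which sustains T and natural killer cells, read 6.28, 6.71 and 6.45 in the controls and 10.21, 10.21 and 10.27 after TNF (3.75 ± 0.20, adjusted p = 1.32e-11). Both genes had groups that were far apart. Il6 read 4.84, 4.74 and 5.29 in the controls and 8.97, 8.54 and 10.50 after TNF, so replicate 3 was well above its group mates. The controls were dim, and 4.38 ± 0.32 (adjusted p = 2.50e-09) is a lower limit. Ereg, an EGF receptor ligand (3.45 ± 0.29), and Csf2 (1.74 ± 0.21) also rose from dim controls. Tnfsf9, the ligand of 4-1BB, rose by 1.99 ± 0.19 and Ifnb1, interferon beta, by 0.75 ± 0.14. Kitl, the ligand of the receptor Kit, was lower (-0.70 ± 0.14, adjusted p = 0.00175), and its 3 other probe sets changed by -0.55 to 0.13. With all 21 arrays, in the model of the 6 arrays or with probe sets averaged per gene, no member of the list was lower.

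**Figure D2:**
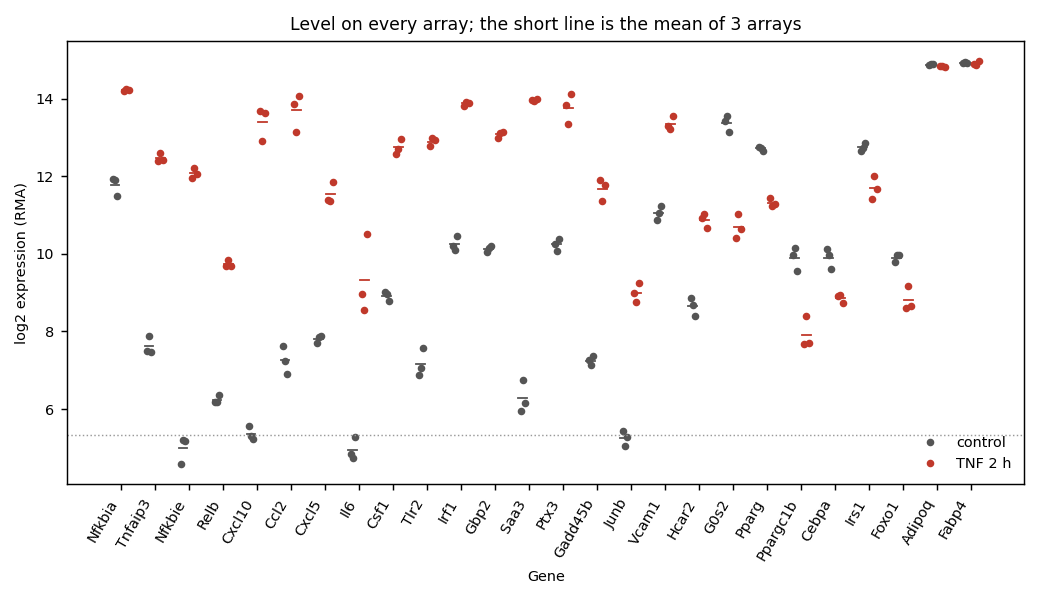
Log2 expression on each of the 3 control arrays (grey) and 3 TNF 2 h arrays (red) is plotted for 26 genes, with the group mean as a short line and 5.34, the median of all values, as a dotted line. TNF arrays lie above all controls from Nfkbia to Hcar2 and below them from G0s2 to Foxo1, while Adipoq and Fabp4 lie near 14.9 in both groups.

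Of 25 adhesion molecules and proteases, 20 were tested, 7 were higher, 1 lower and 12 not called (median 0.20). Vcam1, which binds leukocyte integrins, read 10.88, 11.06 and 11.24 in the controls and 13.28, 13.22 and 13.54 after TNF (2.29 ± 0.14, adjusted p = 1.37e-10), and 2 other probe sets changed by 3.0 and 3.03. Icam1 read 4.17, 4.09 and 3.95 against 5.65, 5.90 and 5.29, a lower limit of 1.54 ± 0.16. The groups did not overlap in either gene. Cd44, a receptor of hyaluronan, rose by 2.46 ± 0.24 (other probe sets 1.08 and 2.59), Adamts4, a protease of matrix proteoglycans, by 2.51 ± 0.21 and the integrin Itgav by 1.19 ± 0.19 (other probe set 0.02). Timp1, an inhibitor of matrix proteases, rose by 1.59 ± 0.24 (adjusted p = 7.15e-05, and 0.175 with all 21 arrays). Adamts1, another protease of that family, fell by 1.03 (SE 0.20, adjusted p = 9.22e-04, and 0.24 with all 21 arrays). Mmp13 differed between control arrays, at 5.01, 5.94 and 8.67, and overlapped with the TNF values of 7.39, 7.41 and 9.63, so its change of 1.60 ± 0.86 was not called (adjusted p = 0.307). Mmp3 (1.02 ± 0.46) was not called either.

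Enzymes of inflammation had 3 of 11 tested genes higher, 8 not called and a median of -0.04, and 8 further genes were dim, Ptgs2 and Nos2 among them. Has2, which makes hyaluronan, the ligand of Cd44, read 5.81, 5.73 and 6.01 in the controls and 8.50, 8.78 and 8.76 after TNF. The rise was 2.83 ± 0.13 (adjusted p = 2.22e-12), and the other probe set changed by 2.84. Tnfaip6, whose product modifies hyaluronan, read 6.33, 6.11 and 6.39 against 10.42, 10.52 and 10.72 (4.28 ± 0.14, adjusted p = 6.97e-15). The groups did not overlap for Has2, while for Tnfaip6, among the 15 highest genes, this was a condition of being named. Ptges, the prostaglandin E synthase, rose by 1.69 ± 0.16. Tnfaip2, in no list but among the 15 highest genes, read 8.13, 8.49 and 8.79 in the controls and 13.19, 13.56 and 13.26 after TNF, a 29.2-fold rise (4.87 ± 0.21).

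Of 19 AP-1 and early growth response factors, 18 were tested, of which 9 were higher and 9 not called (median 0.40). Junb, an AP-1 subunit, read 5.44, 5.06 and 5.28 in the controls and 8.99, 8.75 and 9.24 after TNF. Its control mean of 5.26 was just under the median of all values, so its change of 3.73 ± 0.16 (adjusted p = 5.00e-13) is a lower limit. The groups were far apart, and the other AP-1 subunits differed from it in size: Fosl1 rose by 1.44 ± 0.22 and Jun by 0.61 ± 0.14 (adjusted p = 0.00476, and 1.0 with all 21 arrays). Fos, the classic immediate early gene, changed by -0.06 ± 0.16 and Myc by 0.07 ± 0.15, and neither was called at 2 h. Maff (2.30 ± 0.19), Ets2 (1.88 ± 0.18) and Egr1 (1.19 ± 0.18) rose, as did Egr2 (1.83 ± 0.23) and Atf3 (1.32 ± 0.13), both from dim controls.

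Other immediate early genes moved both ways, with 17 of 36 tested genes higher, 6 lower and 13 not called (median 0.48). With all 21 arrays 10 were higher and 2 lower, and 3 were lower without control replicate 1, control replicate 2 or TNF 2 h replicate 3. Gadd45b, a stress gene that restrains JNK signalling, read 7.26, 7.13 and 7.36 in the controls and 11.91, 11.36 and 11.77 after TNF (4.43 ± 0.19, adjusted p = 5.82e-13), and 2 other probe sets changed by 0.63 and 4.66. Its relative Gadd45g read 9.64, 9.73 and 9.27 in the controls and 7.88, 7.72 and 8.10 after TNF (-1.65 ± 0.13, adjusted p = 6.42e-09). The 2 genes moved in opposite directions, Gadd45b among the 15 highest and Gadd45g among the 15 lowest genes. Ier3, a survival factor, rose by 2.43 ± 0.16, the kinases Sgk1 and Pim1 by 1.97 ± 0.12 and 1.36 ± 0.17 (other Pim1 probe set 0.64), and the Kruppel-like factor Klf10 by 1.31 ± 0.14 (adjusted p = 0.339 with all 21 arrays). Gem, a small GTPase among the 15 highest genes, read 6.06, 6.19 and 7.08 in the controls and 10.45, 10.44 and 10.63 after TNF (4.06 ± 0.36). Klf6 rose by 1.73 ± 0.40 (adjusted p = 0.00493, and 0.187 with all 21 arrays). Rgs2, a brake on G protein signalling, fell by 1.56 (SE 0.21, other probe sets -2.06 to -0.70). Id1, an inhibitor of basic helix-loop-helix factors, fell by 1.58 (SE 0.15, adjusted p = 1.47e-07, and 0.118 with all 21 arrays). Klf15, a metabolic factor of fat cells, was lower (-1.06 ± 0.27, adjusted p = 0.0119), but not without control replicate 1, control replicate 2 or TNF 2 h replicate 3, or with all 21 arrays (adjusted p = 0.259).

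MAP kinase phosphatases and feedback inhibitors of growth factor signalling had 7 of 16 members higher, 2 lower and 7 not called (median 0.17), and with all 21 arrays 4 were higher and 1 lower. Without control replicate 2, 1 was lower. Spry2 (1.31 ± 0.25, other probe set 0.30) and Spred1 (1.23 ± 0.18), inhibitors of the Ras pathway, and the phosphatase Dusp16 (0.99 ± 0.14) rose. Dusp4, a phosphatase of nuclear MAP kinases, read 6.56, 7.0 and 6.56 in the controls and 5.16, 5.71 and 4.87 after TNF. Its arrays did not overlap, and since the TNF mean of 5.25 was dim, the fall of 1.46 (SE 0.22) is a lower limit. Dusp1, often an immediate early gene, changed by 0.48 ± 0.21 and was not called (adjusted p = 0.178).

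Interferon regulatory factors and STAT pathway genes had 12 of 24 tested members higher and 12 not called (median 0.42), and 7 higher with all 21 arrays. Irf1 read 10.21, 10.10 and 10.46 in the controls and 13.82, 13.92 and 13.88 after TNF. It rose 12.2-fold (3.61 ± 0.10, adjusted p = 7.08e-16), and its TNF arrays were nearly equal. Irf2 (1.34 ± 0.14) rose with it, while Irf3 (-0.03 ± 0.12), Irf5 (-0.08 ± 0.14), Irf7 (-0.18 ± 0.21) and Irf9 (0.16 ± 0.17) were not called. All 4 interferon receptor chains tested rose, namely Ifngr2 (1.78 ± 0.17, other probe set 0.33), Ifnar1 (1.04 ± 0.10), Ifngr1 (0.88 ± 0.13) and Ifnar2 (0.53 ± 0.12, other probe sets 2.40 and 3.06, adjusted p = 0.564 with all 21 arrays). Stat2 (1.09 ± 0.15), Tyk2 (0.92 ± 0.11, other probe set near 0) and Jak2 (0.84 ± 0.12, adjusted p = 0.55 with all 21 arrays), which carry the signal of those receptors, rose as well. Socs3, a feedback inhibitor of cytokine receptors, read 7.92, 8.03 and 7.69 in the controls and 8.15, 8.53 and 9.39 after TNF. Its groups did not overlap, but the TNF arrays were spread widely, and the change of 0.81 ± 0.29 was not called (adjusted p = 0.0881). Without TNF 2 h replicate 1 it was called (1.08, adjusted p = 0.0263).

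Of 38 listed interferon-stimulated effector genes 31 were tested, 14 were higher and 17 not called (median 0.58). All 4 guanylate-binding proteins tested, GTPases that act against intracellular pathogens, rose. Gbp2 read 10.04, 10.14 and 10.21 in the controls and 12.99, 13.12 and 13.15 after TNF (2.95 ± 0.11, adjusted p = 5.53e-14). Gbp6 rose by 2.78 ± 0.17, Gbp7 by 2.49 ± 0.19 and Gbp3 by 2.48 ± 0.21. Other rises were seen in Parp14 (3.11 ± 0.19), the immunity-related GTPases Ifi47 (2.64 ± 0.19) and Irgm1 (1.46 ± 0.20), the antibody receptor Trim21 (2.36 ± 0.12) and Ifit1 (1.93 ± 0.28). Among the 17 genes not called were antiviral genes that type I interferon induces, with Oas1a at -0.03 ± 0.19, Oas2 at -0.23 ± 0.19, Mx1 at 0.15 ± 0.20, Rsad2 at 0.25 ± 0.17 and Ifit3 at 0.78 ± 0.28.

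In antigen processing, 7 of 14 tested genes were higher and 7 not called (median 0.39), and 2 were higher with all 21 arrays. The immunoproteasome subunit Psmb10 read 10.96, 10.95 and 10.91 in the controls and 12.29, 12.19 and 12.20 after TNF (1.29 ± 0.09, adjusted p = 6.97e-10). Tap1, which carries peptides into the endoplasmic reticulum, rose by 1.26 ± 0.13. Psmb8, another immunoproteasome subunit, rose by 1.34 ± 0.18 (adjusted p = 1.31e-05, and 0.0895 with all 21 arrays). Cd274, the checkpoint ligand PD-L1, rose by 1.31 ± 0.15 (adjusted p = 2.06e-06, and 0.181 with all 21 arrays). The class I molecules themselves were not called, with B2m at 0.13 ± 0.07, H2-K1 at 0.20 ± 0.17 and H2-D1 at 0.20 ± 0.18.

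Among acute phase and complement genes, 17 of 27 listed were tested, 8 were higher and 9 not called (median 0.77), and 5 were higher with all 21 arrays. Saa3, serum amyloid A3, read 5.94, 6.74 and 6.15 in the controls and 13.97, 13.94 and 13.99 after TNF. It rose 207-fold (7.69 ± 0.21, adjusted p = 5.34e-16), with TNF arrays that were almost equal and controls that were spread over a wider range. Ptx3, the long pentraxin, read 10.26, 10.08 and 10.38 in the controls and 13.83, 13.35 and 14.12 after TNF (3.53 ± 0.20, adjusted p = 6.24e-11), although its other probe set changed by 0.31. Haptoglobin, Hp, read 10.77, 10.91 and 10.97 against 13.20, 13.15 and 13.22 (2.31 ± 0.06, adjusted p = 6.63e-16), and was 2.51 above control under Dex 2 h. Hemopexin, Hpx, which binds haem and was in no list, read 5.62, 6.32 and 5.4 in the controls and 10.87, 10.24 and 10.44 after TNF. It rose 26.6-fold (4.73 ± 0.19), and was named as 1 of the 15 highest genes, which were picked without overlap of the groups. Complement factor B, Cfb, rose by 2.53 ± 0.22. Lcn2, an iron-siderophore binder, read 5.35, 5.33 and 5.41 in the controls and 7.72, 7.05 and 7.70 after TNF (2.13 ± 0.35, adjusted p = 2.13e-04, and 0.181 with all 21 arrays). Saa1 (0.78 ± 0.48) and Saa2 (0.86 ± 0.31) were not called, and probe sets of the Saa family can share transcripts.

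Toll-like receptor genes had 5 of 16 tested members higher and 1 lower (median 0.35), with 2 higher when all 21 arrays were used. Tlr2, the receptor of bacterial lipopeptides, read 6.87, 7.07 and 7.58 in the controls and 12.77, 12.98 and 12.92 after TNF, a 52.5-fold rise (5.71 ± 0.16, adjusted p = 5.34e-16). This gene stood far above the rest of its list: the adaptor Myd88 rose by 1.16 ± 0.10, and Tlr4, the endotoxin receptor, rose by 0.96 ± 0.11 (adjusted p = 2.37e-06, and 0.384 with all 21 arrays). Ticam1 was lower (-0.45 ± 0.12, adjusted p = 0.0125), but no member was lower without TNF 2 h replicate 1, in the model of the 6 arrays or with all 21 arrays.

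Regulators of cell death had 4 of 19 tested members higher and 2 lower (median 0.07). Fas, a death receptor, read 7.17, 6.82 and 6.68 in the controls and 9.62, 9.75 and 9.70 after TNF (2.80 ± 0.20, adjusted p = 1.97e-09). Casp4, the caspase that senses cytosolic endotoxin, read 6.81, 6.66 and 6.97 against 10.05, 9.92 and 10.12 (3.22 ± 0.14, adjusted p = 4.48e-13). Each TNF array exceeded each control in both genes. Bid, which links death receptors to mitochondria, rose by 1.69 ± 0.16. The 2 lower genes were small changes, with Mcl1 at -0.39 ± 0.12 (5 other probe sets -0.40 to 0.39) and Casp9 at -0.58 ± 0.15. No member of the list was lower without control replicate 3, TNF 2 h replicate 1 or TNF 2 h replicate 3, only Casp9 was lower without control replicate 1 or 2, and 0 were in the model of the 6 arrays or of all 21. The survival genes Bcl2l1 (0.35 ± 0.13) and Cflar (0.39 ± 0.16) were not called.

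Metal and oxidant defence genes had 7 of 18 tested members higher and 1 lower (median 0.03), and 3 higher with all 21 arrays. The metallothionein Mt2 read 10.41, 10.75 and 10.35 in the controls and 12.97, 12.79 and 13 after TNF (2.41 ± 0.13, adjusted p = 1.26e-11), and the zinc importer Slc39a14 rose by 2.19 ± 0.12, with 2 other probe sets at 0.39 and 0.44. Sod2, the mitochondrial superoxide dismutase, read 12.69, 12.70 and 12.45 in the controls and 13.80, 13.40 and 13.60 after TNF. The groups were apart, with a rise of 0.99 ± 0.11 (adjusted p = 7.27e-07, and 0.181 with all 21 arrays). The factor Nfe2l2 rose by 0.86 ± 0.08 (adjusted p = 1.74e-07, and 0.339 with all 21 arrays), while its targets Nqo1 (0.03 ± 0.16) and Srxn1 (-0.07 ± 0.14) were not called. Hmox1 was lower (-0.71 ± 0.20, adjusted p = 0.0222), but not without TNF 2 h replicate 2 (-0.47, adjusted p = 0.125), control replicate 1 (adjusted p = 0.0587) or control replicate 2 (adjusted p = 0.0691), nor with all 21 arrays or in the model of the 6 arrays (adjusted p = 0.0602).

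G0s2, Angptl8, Ppp1r3c and Inhbb fell furthest among called genes. G0s2, the inhibitor of the triglyceride lipase ATGL, read 13.42, 13.54 and 13.15 in the controls and 10.40, 11.03 and 10.63 after TNF. It fell 6.40-fold (-2.68 ± 0.19, adjusted p = 2.11e-09). Angptl8, an insulin-responsive regulator of lipoprotein lipase, read 8.49, 9.09 and 8.39 against 6.39, 6.34 and 5.89 (-2.45 ± 0.22, adjusted p = 4.48e-08). Ppp1r3c, which brings a phosphatase to glycogen, read 11.57, 11.79 and 12.03 in the controls and 8.54, 10.52 and 9.01 after TNF. Its fall of 2.44 (SE 0.33, adjusted p = 1.67e-05) was uneven, with TNF replicate 2 closest to the controls. Inhbb, a subunit of activin B, read 9.87, 9.80 and 10.19 in the controls and 7.20, 8.11 and 7.57 after TNF (-2.33 ± 0.18, adjusted p = 6.20e-09), and its other probe set changed by -0.79. The 15 lowest genes were named on condition that their groups did not overlap, so the separation of these 4 adds no support. Further falls were called for Rasl11a (-2.31 ± 0.15), the iron exporter Slc40a1 (-2.02 ± 0.13), Sertad4 (-2.01 ± 0.20), Smim5 (-1.90 ± 0.15) and the oestrogen receptor Gper1 (-1.84 ± 0.17). The Wnt receptor Fzd4 (-1.84 ± 0.11, other probe set -0.62) and the death factor Bmf (-1.67 ± 0.19, other probe set -0.19) were among the 15 lowest genes as well. Under Dex 2 h, Angptl8 (-2.43), Inhbb (-1.92), Sertad4 (-1.96), Gper1 (-1.77) and Slc40a1 (-1.68) were also below control. Their differences between the agents were not called. For Ppp1r3c (0.24 under Dex), Rasl11a (-0.36), Smim5 (1.02), Fzd4 (-0.85) and Bmf (-0.57) the difference was called. Whether the shared falls belong to TNF was not tested.

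Adipogenic transcription factors fell more often than they rose. Of 31 listed genes 29 were tested, 4 were higher, 10 lower and 15 not called, with a median change of -0.28 against -0.051 for all genes, and with all 21 arrays 0 were higher and 6 lower. Pparg, the master regulator of fat cells, read 12.76, 12.73 and 12.65 in the controls and 11.45, 11.23 and 11.28 after TNF (-1.40 ± 0.11, adjusted p = 1.28e-08). Cebpa, its partner in maintaining the adipocyte state, read 10.12, 9.96 and 9.60 in the controls and 8.91, 8.93 and 8.72 after TNF (-1.04 ± 0.19, adjusted p = 4.61e-04). In both genes every TNF array lay below every control, so Pparg mRNA was 2.64-fold and Cebpa mRNA 2.06-fold lower. The coactivator Ppargc1b read 9.98, 10.15 and 9.57 against 7.68, 8.39 and 7.69 (-1.98 ± 0.19, adjusted p = 2.07e-07). Its partner Esrra, a nuclear receptor of mitochondrial genes, fell by 0.82 (SE 0.14, other probe set -0.22). The related Ppargc1a was lower (-0.66 ± 0.18, adjusted p = 0.0208), but not without control replicate 1, control replicate 2, TNF 2 h replicate 2 or TNF 2 h replicate 3, or with all 21 arrays (adjusted p = 0.791). Zfp467 (-1.04 ± 0.16, other probe sets -0.87 and -0.45), Bcl6 (-0.99 ± 0.17) and Zbtb16 (-0.88 ± 0.19, other probe sets -1.05 and -0.10, adjusted p = 0.0916 with all 21 arrays) fell too. Nrip1, a corepressor of nuclear receptors that was in no list, read 11.78, 11.85 and 12.06 in the controls and 9.55, 10.63 and 9.78 after TNF (-1.91 ± 0.22), and its 5 other probe sets changed by -1.85 to -0.10.

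The higher members were small changes. Cebpd, an early factor of adipogenesis, read 8.44, 8.56 and 8.33 in the controls and 8.96, 8.87 and 9.71 after TNF, with replicate 3 highest. It was called at 0.74 ± 0.15 (adjusted p = 0.00173), but not with all 21 arrays (adjusted p = 0.81), in the model of the 6 arrays (adjusted p = 0.0796) or with the mean of its probe sets (0.40, adjusted p = 0.0784). Ppard rose by 0.68 ± 0.16 (adjusted p = 0.29 with all 21 arrays). Stat5a (0.45 ± 0.12, adjusted p = 0.0173) and Cebpb (0.32 ± 0.09, adjusted p = 0.0247) were called, but neither with all 21 arrays, in the model of the 6 arrays, or without control replicate 1, control replicate 2 or TNF 2 h replicate 2. The number of higher members was 2 without control replicate 1, control replicate 2 or TNF 2 h replicate 2, and 1 in the model of the 6 arrays. Srebf1 (-0.28 ± 0.12), Rxrg (-0.45 ± 0.19) and Nr1h3 (-0.36 ± 0.24) were not called.

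Adipocyte identity genes and adipokines had 2 of 24 tested members higher, 6 lower and 16 not called (median -0.19). The number lower was 2 without control replicate 2, 3 without TNF 2 h replicate 3 and 0 with all 21 arrays. Pck1, the enzyme of glyceroneogenesis, read 11.92, 12.14 and 12.37 in the controls and 10.51, 11.30 and 10.89 after TNF (-1.24 ± 0.17, adjusted p = 2.20e-05, and 0.0958 with all 21 arrays), and its other probe set changed by -2.32. The groups were apart, with TNF replicate 2 nearest to the controls. Slc2a4, the insulin-responsive glucose transporter GLUT4, read 10.74, 10.96 and 10.84 in the controls and 10.56, 10.31 and 10.30 after TNF. Its fall of 0.46 (SE 0.11, adjusted p = 0.00762) missed the threshold when control replicate 2 was left out (-0.40, adjusted p = 0.0537), in the model of the 6 arrays (adjusted p = 0.0598) or with all 21 arrays (adjusted p = 0.146). Lpl (-0.03 ± 0.05), Cd36 (-0.09 ± 0.16) and Retn (-0.07 ± 0.16) were not called.

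Genes of lipolysis had 3 of 19 tested members higher, 4 lower and 12 not called (median -0.30). Lipe, hormone-sensitive lipase, read 11.56, 11.82 and 11.91 in the controls and 11.01, 10.95 and 10.95 after TNF (-0.79 ± 0.14, adjusted p = 5.03e-04). Its groups did not overlap, and G0s2 fell in the same list. The droplet coat protein Plin2 (-0.49 ± 0.09) was lower, while the ATGL gene, Pnpla2 (-0.10 ± 0.08), was not called. Abhd5, the coactivator of ATGL, was lower (-0.36 ± 0.10, adjusted p = 0.0294), but not with all 21 arrays, in the model of the 6 arrays (adjusted p = 0.135) or without control replicate 1, control replicate 2, TNF 2 h replicate 2 or TNF 2 h replicate 3. Hcar2, the antilipolytic receptor of niacin, read 8.86, 8.68 and 8.41 in the controls and 10.93, 11.03 and 10.67 after TNF (2.23 ± 0.22, adjusted p = 2.26e-07). The lactate receptor Hcar1 rose by 0.89 ± 0.13 (adjusted p = 2.78e-05, and 0.173 with all 21 arrays). With all 21 arrays 1 member was higher.

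Insulin signalling and glucose uptake had 5 of 40 tested members higher, 8 lower and 27 not called (median -0.15). The number lower was 4 without control replicate 2, 5 without control replicate 1 and 3 with all 21 arrays, which left 2 higher. Irs1, the main substrate of the insulin receptor in fat cells, read 12.66, 12.73 and 12.85 in the controls and 11.40, 12.00 and 11.67 after TNF. It was 2.08-fold lower (-1.06 ± 0.14, adjusted p = 1.27e-05), without overlap of the groups. Irs2 was called lower (-0.95 ± 0.29, adjusted p = 0.0367) although its groups overlapped, with controls of 9.23, 9.46 and 7.91 and TNF arrays of 7.75, 8.14 and 7.88, and was not called with all 21 arrays (adjusted p = 0.22), in the model of the 6 arrays (adjusted p = 0.178) or without control replicate 1, control replicate 2, TNF 2 h replicate 1 or TNF 2 h replicate 3. Foxo1, a transcription factor that insulin restrains, read 9.78, 9.96 and 9.96 against 8.61, 9.16 and 8.65 (-1.09 ± 0.13, adjusted p = 5.17e-06), and its 3 other probe sets changed by -1.08 to 0.02. Ptpn1, the phosphatase PTP1B that acts on the insulin receptor, read 9.69, 9.48 and 9.28 in the controls and 11.07, 11.12 and 11.10 after TNF (1.61 ± 0.11, adjusted p = 5.46e-10). Phlda1 rose by 3.03 ± 0.19. The receptor Insr (-0.32 ± 0.20), Akt1 (-0.05 ± 0.14) and Pik3r1 (0.01 ± 0.14) were not called.

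Lipid synthesis enzymes had 2 of 28 tested members higher and 3 lower (median -0.10). The share called was 17.9%, against 10.7% of all genes tested. Lpin1, the phosphatidate phosphatase, read 11.13, 11.25 and 11.04 in the controls and 10.37, 10.52 and 10.18 after TNF (-0.79 ± 0.11, adjusted p = 2.31e-05). The number lower was 1 without any 1 of the controls, without TNF 2 h replicate 3 and with all 21 arrays, and 6 with the 3'-5' gap as a covariate. The number higher was 1 without control replicate 3, TNF 2 h replicate 1 or TNF 2 h replicate 2. Fasn (-0.15 ± 0.11), Scd1 (-0.07 ± 0.05) and Acaca (0.09 ± 0.18) were not called. Of 26 subunits of oxidative phosphorylation tested, 0 were called by limma and 0 had an unadjusted p below 0.05, with a median change of -0.09 and a range from -0.15 to 0.03.

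**Figure D3:**
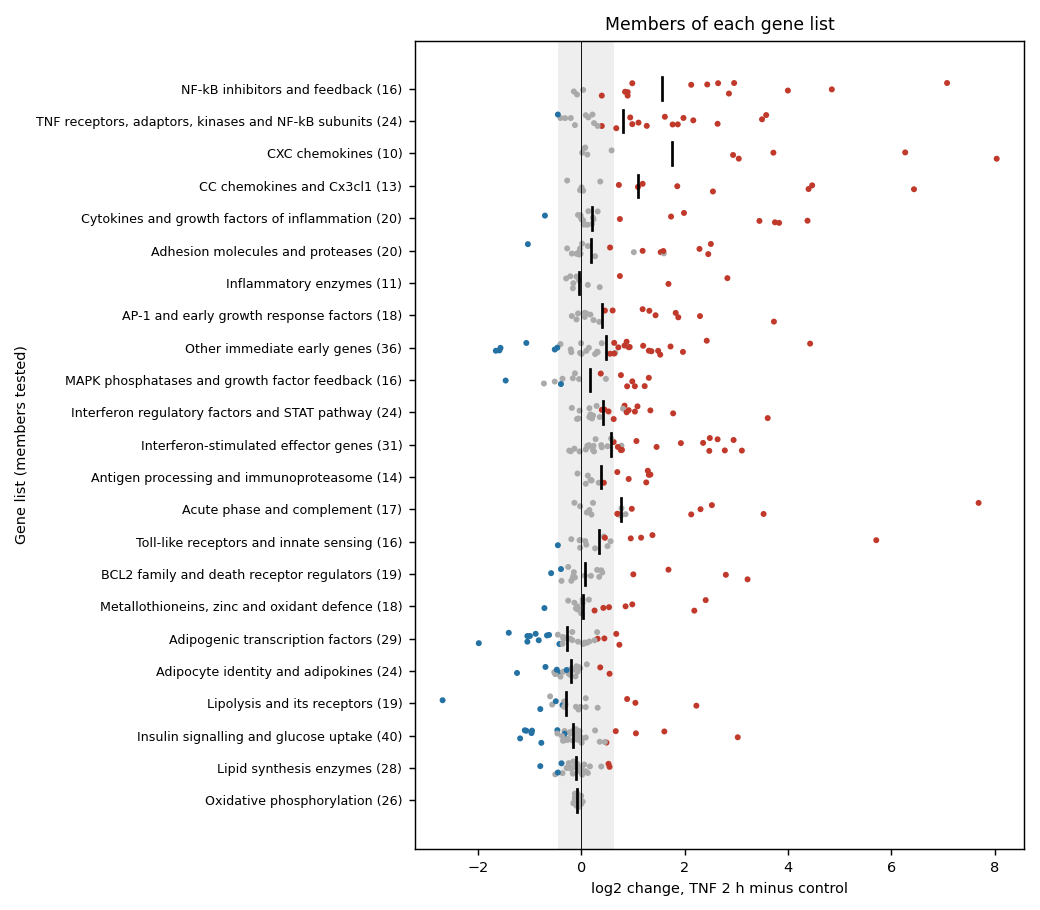
Each point is the log2 change (TNF 2 h minus control) of 1 tested gene of a list, coloured red where called higher, blue where called lower and grey where not called. The bar is the median of the list and the shaded band spans the 5th to the 95th percentile of all genes tested. Medians run from 1.77 in the CXC chemokines to -0.30 in the lipolysis list, and all 26 oxidative phosphorylation genes lie near 0.

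The 18 genes of a fixed set were followed to the later times of TNF. In the direct comparison of TNF 24 h with TNF 2 h, where 22.1% of all genes tested were called, 13 of the 18 were called, and only Irf1, Cxcl1, Lcn2 and G0s2 with all 21 arrays. Irf1 was 3.61 above control at 2 h, 1.64 at 24 h and 0.42 at 6 d, and was lower at 24 h than at 2 h (-1.97, adjusted p = 3.19e-11). Tnfaip3 went from 4.85 to 3.45 and 1.38 (-1.40 from 2 h to 24 h, adjusted p = 9.30e-07), and Cxcl1 from 2.94 to 1.5 and 0.78 (-1.44, adjusted p = 5.4e-08). The values at 6 d rest on 2 arrays. TNF 24 h replicate 3 had a 3'-5' gap of 0.683, against 0.110 and 0.163 in replicates 1 and 2, and no TNF 24 h array was left out in turn. Nfkbia (-0.49, adjusted p = 0.00131) and Junb (-0.65, adjusted p = 0.0051) were also lower at 24 h. Lcn2 moved the other way, 2.13 above control at 2 h and 5.33 at 24 h (3.2, adjusted p = 1.25e-06). Ccl2 was 6.44, 6.77 and 5.52 above control at the 3 times, and its difference between 24 h and 2 h of 0.33 was not called (adjusted p = 0.266).

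Other members of the set depended on single arrays. Il6 was lower at 24 h than at 2 h (-1.0, adjusted p = 0.0292), but not without TNF 2 h replicate 3 (-0.42, adjusted p = 0.184). Cxcl10 was not called (-0.51, adjusted p = 0.131), but was without TNF 2 h replicate 2 (-0.76, adjusted p = 0.0231). Saa3 was higher (0.62, adjusted p = 0.038), with adjusted p of 0.077 to 0.0807 when any 1 TNF 2 h array was left out. Icam1 (-0.48, adjusted p = 0.0382) was not called without TNF 2 h replicate 1 (adjusted p = 0.0948) or replicate 2 (adjusted p = 0.177). Sod2 (0.35, adjusted p = 0.0215) was not called without replicate 2 (adjusted p = 0.111) or replicate 3 (adjusted p = 0.0551) of that group.

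The lower genes of the set were closer to control at 24 h in part. Pparg was -1.40 from control at 2 h, -0.63 at 24 h and -0.71 at 6 d, and was higher at 24 h than at 2 h (0.77, adjusted p = 4.29e-05). G0s2 went from -2.68 to -1.07 and -1.16 (1.61 from 2 h to 24 h, adjusted p = 3.69e-06). Irs1 was -1.06, -0.57 and -0.27 from control (0.48 from 2 h to 24 h, adjusted p = 0.0166), and without TNF 2 h replicate 1 the difference was 0.34 (adjusted p = 0.108). The changes of Cebpa were -1.04, -0.84 and -0.73, with no difference called between 24 h and 2 h (0.20, adjusted p = 0.501).

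The same set was compared between both agents at the 2 h time point. Between Dex 2 h and TNF 2 h, 14.8% of all genes were called and 15 of the 18 genes of the set. With all 21 arrays 13 of the 18 were called, as Irs1 and Sod2 lost the call. Cxcl10 was lower under Dex (-8.18, adjusted p = 3.66e-16), and its change against control was -0.14 under Dex and 8.04 under TNF. Irf1 was lower under Dex (-5.52, adjusted p = 1.51e-18), with changes against control of -1.91 and 3.61. Nfkbia was 1.56 above control under Dex and 2.44 under TNF, a difference of -0.88 (adjusted p = 1.17e-06). Cebpd, at 4.05 under Dex and 0.74 under TNF, was 3.32 higher under Dex (adjusted p = 9.72e-13), and Pparg, at -0.19 and -1.40, was 1.21 higher under Dex (adjusted p = 6.78e-08). G0s2 was -3.02 from control under Dex and -2.68 under TNF, and the difference of -0.34 was not called (adjusted p = 0.299). The same held for Cebpa (-1.16 and -1.04, adjusted p = 0.769) and Lcn2 (1.68 and 2.13, adjusted p = 0.502). Irs1 was lower still under Dex, at -1.73 against -1.06 (difference -0.68, adjusted p = 0.00132, and 0.258 with all 21 arrays). Outside the set, Pck1 (-1.13), Dusp4 (-2.01), Zfp467 (-1.75), Ppargc1b (-1.23) and Nrip1 (-1.09) were also below control under Dex 2 h. Mt2 (3.34), Slc39a14 (2.6) and Sgk1 (2.54) were above control, by more than under TNF. Foxo1 (0.96) and Lpin1 (0.76) rose under Dex and fell under TNF, and Cxcl5 (-3.81) the reverse. These genes were picked after their values were seen, and whether the shared changes belong to TNF was not tested. Changes against control share the 3 control arrays, and both direct comparisons share the TNF 2 h arrays.

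**Figure D4:**
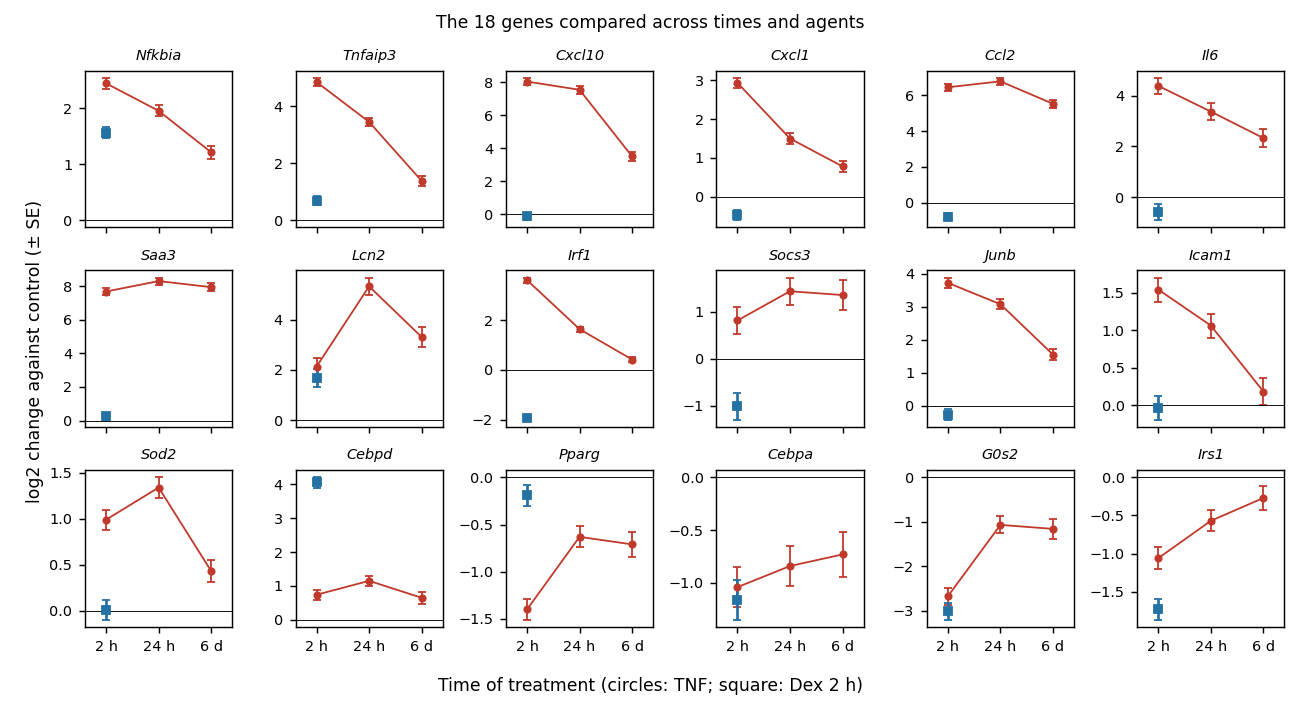
For each of the 18 genes the log2 change against control ± SE is plotted at 2 h, 24 h and 6 d of TNF (red circles and lines) and at 2 h of Dex (blue squares), with a vertical scale of its own. Irf1 declines from 3.61 to 0.42 over the TNF times, Lcn2 is highest at 24 h (5.33), and Dex 2 h lies far from TNF 2 h for Cxcl10 and close to it for G0s2.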

How the data were processed

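The authors normalised the arrays by RMA, per the submitters' processing notes, with the version not given in the sources used here. From their range of 2.70 to 15.06, the deposited values were taken to be on the log2 scale and were used unchanged. Of 45101 probe sets, 34958 list 1 gene, 932 several and 9211 none in the platform annotation, and 34754 symbols were updated through RefSeq. Each of 18194 genes was represented by its brightest probe set of 1 gene. Genes with at least 3 arrays above 5.34, the median of all values, were tested (12156 genes), and 6038 were dim. A change against a group mean below 5.34 is read as a lower limit, which is a rule of reading, as no detection floor was measured.

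The 20 arrays of 7 groups, without TNF 6 d replicate 2, were fitted with a mean per group in limma 3.58.1 (R 4.3.3), with 13 residual degrees of freedom and moderation with a trend. P-values are two-sided and adjusted by Benjamini and Hochberg over all genes tested. An exact permutation of 3 arrays against 3 was not used. Tested on simulated data for this comparison (12156 genes, 50 changed at each size), the model recovered 44% of changes of 0.5 and 100% of those of 1, 2 and 4, with 4.97% of calls false. The simulation drew independent normal noise with a fixed spread for each gene, and changed far fewer genes than the 1297 called here. Its shares describe that setting and are not estimates for these data. Deviations of arrays with the same replicate number correlated at 0.432, -0.206 and -0.1, and those with different numbers at -0.424 to 0.367. With 3 arrays a group this check cannot decide whether the numbers pair the samples, and the labels name no pairing.

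The gene lists, the rule for named genes and the fixed set of 18 genes were chosen with earlier results of these data known. Named are the 15 highest and 15 lowest called genes without overlap of the groups, up to 5 called members of each list with the largest change, the fixed set, and further list members given to describe a list more fully, which were chosen after their values were seen. Genes of a list beyond those tested or dim are not analysed here. Alternatives were other filters, probe set rules, scalings and variance priors, all 21 or only 6 arrays, a replicate block, the 3'-5' gap as a covariate, array weights, a 2-fold limit, and leaving out each array. Promoters were searched in Python 3.11.15 on both strands of the RefSeq windows.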

Additional observations from a re-analysis of the deposited data

Results flagged for a closer look

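In the direct comparison of TNF 24 h with TNF 2 h, 13 genes of the fixed set differed between the times by limma. Nfkbia (-0.49), Tnfaip3 (-1.40), Cxcl1 (-1.44), Il6 (-1.0), Irf1 (-1.97), Junb (-0.65) and Icam1 (-0.48) were lower on the log2 scale at 24 h. Saa3 (0.62), Lcn2 (3.2), Sod2 (0.35), Pparg (0.77), G0s2 (1.61) and Irs1 (0.48) were higher at 24 h. For Pparg, G0s2 and Irs1, which were below control at 2 h, this is a smaller distance from control.

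Outside the genes with a symbol, 2515 probe sets without a gene in the annotation passed the filter, and 211 of them were called at TNF 2 h against control (8.39%), 146 higher and 65 lower. Over the 12156 genes tested the share was 10.7%.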

How the results depend on the processing

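The 127 called genes of the 128 that the rule names kept their direction in all of the 18 other models that tested them. Filters, variance priors and the models of 21 or 6 arrays leave the change itself as it was. Leaving out 1 array cannot reverse a gene whose groups do not overlap. In most of these models the direction was therefore fixed in advance and adds no support. Of the 128, 96 kept their side of the threshold wherever they were tested, and the stricter filter drops dim genes. The call was lost for 30 of these genes with all 21 arrays and for 12 in the model of the 6 arrays. Of 1297 genes called (801 higher, 496 lower), 464 (358 higher, 106 lower) were called with all 21 arrays and 382 (311 higher, 71 lower) with an added limit of 2-fold. The model of the 6 arrays called 844 genes (236 lower), of which 825 were among the 1297 with the same direction. With array weights 4854 were called (1728 higher, 3126 lower), but the weights did not converge. The 3'-5' gap as a covariate gave 959 lower genes. Leaving out each array in turn gave 1003 to 1405 genes called, 677 to 831 higher and 295 to 707 lower. A replicate block, which rests on numbers whose pairing could not be decided, gave 1444 genes called. The median change of all genes was -0.02 under median centring and -0.017 under cyclic loess. In the fixed set, 4 genes differed between TNF 24 h and TNF 2 h with all 21 arrays and 6 with the 2-fold limit, against 13. With array weights the difference of Socs3 between these times was -0.11 and that of Cebpa between Dex 2 h and TNF 2 h was 0.01, neither called in any direction. For these 2 comparisons only TNF 2 h arrays were left out in turn. The causes were not tested. At 3 arrays a group, changes of 0.5 were often missed in the simulation, whose setting differs from these data. Groups below 5.34 are read as giving only a limit.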
